A study of Mus musculus with 4 samples.

Results

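The JAK and STAT family comprises the Janus kinases and the transcription factors that these kinases phosphorylate at cytokine receptors. The genes described here were chosen by their symbols, Jak1, Jak2, Jak3, Stat2, Stat3, Stat4, Stat5a, Stat5b and Stat6, which are 9 of the 54752 genes in the count tables, and all 9 had enough reads to be among the 14330 genes tested. Other members of the family are not described here. RNA was sequenced from 2 WT libraries and 2 Mek1/2-tKO libraries of splenic CD4+ T cells after 3 days of Tfh polarization in vitro, to ask how loss of the kinases MEK1 and MEK2 alters the transcriptome of cells steered towards the T follicular helper fate. Mek1/2-tKO donors carried a Cd4-Cre+ transgene together with Map2k1 fl/fl and Map2k2 fl/fl alleles, made in C57BL/6 mice, and Cre under the Cd4 promoter deletes both floxed genes in T cells during thymic development. The study describes littermate WT controls, but the allele of Cre or of the floxed genes that each WT donor carried, and the age of the donors, were not given for these libraries. Both genotypes received plate-bound anti-CD3, anti-CD28, IL-6 and neutralizing antibodies to IL-4, TGF-β, IL-2 and IFN-γ, and viable cells were sorted again on day 3. Naïve CD4+ cells had been isolated from spleen with a magnetic kit. The labels do not say that the libraries of a genotype came from separate mice, so that the p-values measure the spread between these libraries.

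A cytokine brings together receptor chains whose cytoplasmic tails carry JAK kinases, the kinases phosphorylate the tails and each other, and STAT proteins dock there, are phosphorylated, pair up and enter the nucleus to bind DNA. In CD4+ T cells the choice of STAT follows the cytokine. IL-6 and IL-21 act mainly through STAT3, IL-2 and IL-7 through STAT5, IL-4 through STAT6, IL-12 through STAT4, and type I interferon through a complex that holds STAT2 and IRF9. STAT3 is known as a promoter of the Tfh program and STAT5 as its antagonist. These proteins are switched by phosphorylation, and the values below are RNA levels alone.

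The libraries held 18858860 and 18807774 assigned reads in WT and 16330802 and 18931090 in Mek1/2-tKO. Levels are given in CPM, the count of a gene relative to the total count of its library, after scaling by edgeR's trimmed mean of M values (TMM), a method that sets the bulk of genes level between libraries. Of the targeted genes, Map2k1 had a log2 fold change of -0.86 between 185 ± 4.01 CPM in WT cells and 102 ± 5.01 CPM in Mek1/2-tKO cells (SD over 2 libraries; adjusted p = 1.29e-06 in edgeR's quasi-likelihood test), while that of Map2k2 was 0.15 (adjusted p = 0.126 in the same test). Reads were counted per gene, which does not separate transcripts that lack the floxed exons from intact ones. The labelled cell type was read from its markers. Cd4 itself, singled out after its values were seen, had 297 and 289 CPM in WT against 18.8 and 25.1 CPM in Mek1/2-tKO, whereas Thy1 was higher (log2 fold change 0.83), Lck had a log2 fold change of -0.54 and Trbc2 one of -0.03. Of the 12 alpha-beta CD4 T-cell markers 6 were lower and 1 higher past both thresholds, at a median log2 fold change of -0.76. Besides Cd4, those lower were Cd28 (log2 fold change -1.99), Cd5 (-1.55), Cd2 (-1.22), Cd3e (-1.06) and Trac (-0.98). The summed level of the 12 markers was 3231 to 3240 CPM in WT and 2617 to 2787 CPM in Mek1/2-tKO.

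Markers of other cell types moved with the genotype. Of the 20 B-lineage markers 18 were higher and 1 lower in Mek1/2-tKO, and their summed level was 1986 to 2018 CPM in WT and 9879 to 10019 CPM in Mek1/2-tKO, led by Ighm, Igkc and Cd79b. The 1 lower was Fcer2a, whose call was lost in several other settings. Of the 12 NK-cell markers 11 were higher and 1 lower, from a sum of 152 to 154 CPM to one of 874 to 958 CPM, led by Nkg7, Prf1 and Gzma. The 1 lower was Itga2, at 1.90 and 1.40 CPM in WT and 0.646 and 0.426 CPM in Mek1/2-tKO, and it was not called with DESeq2 or without any one library. The 6 gamma-delta T-cell markers summed to 21.9 to 22.2 CPM in WT and 281 to 289 CPM in Mek1/2-tKO, led by Blk, Trdc and Tcrg-C2. Blk, which is also on the B-lineage list, gave 14.9 and 17.8 CPM of these sums in WT and 105 and 116 CPM in Mek1/2-tKO, and Trdc alone went from 1.64 and 1.56 CPM to 57.9 and 53.6 CPM. Both CD8 T-cell markers, Cd8a and Cd8b1, were higher, from a sum of 59.3 to 67.4 CPM to one of 214 to 238 CPM. The 14 myeloid markers summed to 96.7 to 108 CPM in WT and 373 to 391 CPM in Mek1/2-tKO. Mpeg1 gave 55.9 and 47.0 CPM of these sums in WT and 220 and 239 CPM in Mek1/2-tKO. Cybb gave 47.2 and 44.1 CPM in WT and 120 and 124 CPM in Mek1/2-tKO. Lyz2, the next most abundant, had only 0.411 and 0.622 CPM in WT and 10.2 and 6.23 CPM in Mek1/2-tKO. Whether the RNA of Mpeg1 and Cybb came from myeloid cells was not tested. Of the 14 markers 10 passed the filter on low counts, and Itgam and Csf1r were among those that did not. Some markers passed that filter only through Mek1/2-tKO, where they were high, so that a count of those called was partly set by it. Among markers with at least 10 counts in every library, those called higher were 18 B-lineage, 10 NK-cell, 4 gamma-delta T-cell, 2 CD8 T-cell and 5 myeloid markers. Adgre1, S100a8, Clec9a and Siglech were at 0 counts in both WT libraries, and no marker was at 0 in both Mek1/2-tKO libraries. The JAK and STAT genes are also used by these other cell types, and the part of such cells in the values below was not tested. In RNA from a bulk culture, fewer cells of a type and less RNA per cell cannot be told apart.

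Most of the 9 members were lower in Mek1/2-tKO cells and 1 was higher. A gene is called changed here when it passes both thresholds that the study applied, a fold change of 1.5 or more and a Benjamini-Hochberg adjusted p below 0.05, which was taken from edgeR's quasi-likelihood test over all genes. Jak2, Jak3, Stat3, Stat5a and Stat5b fell and Stat2 rose, so that 5 of 9 members were called lower, against 16.4% of all genes tested, and 1 of 9 higher, against 19.3% of all genes tested. In either direction 6 of 9 members were called, against 35.8% of all genes. By the adjusted p alone 7 members were lower, against 27.2% of all genes, and 1 was higher, against 27.8%, which makes 8 of 9 where 55% of all genes passed. The libraries of the genotypes overlapped for 0 of the 9 members, but both libraries of one genotype also lay above both of the other for 78.3% of all genes. The median log2 fold change was -0.68 over the members and 0.02 over all genes tested.

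**Figure D1:**
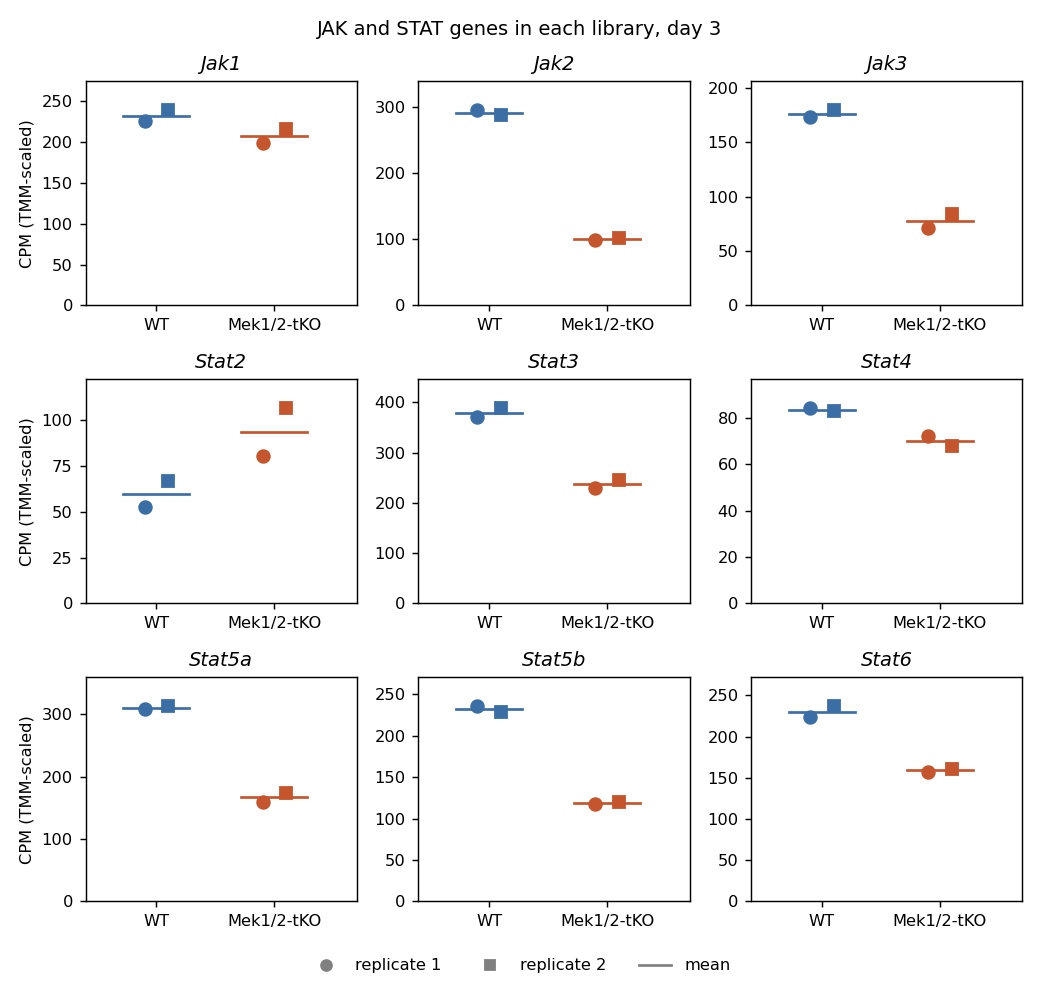
TMM-scaled CPM (vertical axis, from 0) of each of the 9 genes in every library, with WT in blue, Mek1/2-tKO in orange, circles for replicate 1, squares for replicate 2 and a line at the mean of 2 libraries. In every panel the libraries of the genotypes are apart, by the most for Jak2 (289 to 296 CPM against 98.9 to 101 CPM), and only Stat2 is higher in Mek1/2-tKO.

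Jak2 had the largest fold change of the members. This kinase serves receptors such as those for IL-12, IL-23, IFN-γ and the cytokines of the common β chain. It stood at 296 and 289 CPM in WT and at 98.9 and 101 CPM in Mek1/2-tKO. The replicates lay close together in each genotype, and no Mek1/2-tKO library came near a WT library. Jak2 fell 2.92-fold between means of 292 ± 4.78 and 100.2 ± 1.81 CPM (SD over 2 libraries, as for the other members), which is -1.54 as a log2 fold change (standard error 0.08, 95% interval -1.71 to -1.38, adjusted p = 2.07e-09 in edgeR's quasi-likelihood test). Leaving out any one library kept this value between -1.57 and -1.53. The gene (ENSMUSG00000024789.12) lies at chr19:29251828-29313080 on the plus strand of GRCm38 and shares no exon base with another annotated gene.

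Jak3, the kinase bound to the common γ chain that the receptors for IL-2, IL-4, IL-7, IL-9, IL-15 and IL-21 share, came next. Its level was 173 and 179 CPM in WT cells, against 71.3 and 83.6 CPM in Mek1/2-tKO. Here too the Mek1/2-tKO libraries were both below the WT libraries, with replicate 1 the lower of the pair. Jak3 fell 2.27-fold between means of 176 ± 4.49 and 77.5 ± 8.70 CPM, which is -1.18 as a log2 fold change (standard error 0.09, 95% interval -1.38 to -0.98, adjusted p = 2.11e-07 in edgeR's quasi-likelihood test). Its exons (ENSMUSG00000031805.17), at chr8:71676296-71690575 on the plus strand, share 404 bases on the same strand with Insl3, or 7.55% of their length. Insl3 itself had only 61 and 76 counts in WT and 29 and 38 counts in Mek1/2-tKO, while the lowest library of Jak3 had 1104 counts.

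Jak1, which binds one chain of nearly every cytokine receptor that T cells use, was the kinase with the smallest difference among the members. It had 226 and 239 CPM in WT cells, against 199 and 216 CPM in Mek1/2-tKO. The higher Mek1/2-tKO library lay just below the lower WT library. The WT mean was 232 ± 9.29 CPM, the Mek1/2-tKO mean was 207 ± 11.9 CPM, and the log2 fold change of -0.16 did not pass (standard error 0.08, 95% interval -0.33 to 0.0027, adjusted p = 0.0887 in edgeR's quasi-likelihood test). That interval reaches neither the fold change of Jak3 nor that of Jak2, whose own intervals end at -0.98 and -1.38. Over the other settings that kept all libraries Jak1 had log2 fold changes of -0.25 to -0.15, with adjusted p values of 0.0184 to 0.13 in edgeR and DESeq2. Leaving out a library moved its value from -0.11, without Mek1/2-tKO replicate 1, to -0.23, without Mek1/2-tKO replicate 2, where edgeR's adjusted p was 0.00309. Jak1 (ENSMUSG00000028530.14) lies at chr4:101152367-101265282 on the minus strand.

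Stat3, the STAT downstream of the IL-6 present in these cultures, was lower in Mek1/2-tKO. It had 371 and 388 CPM in WT cells, against 230.4 and 245 CPM in Mek1/2-tKO. The WT libraries were both above the Mek1/2-tKO libraries, and the replicates of a genotype differed by far less than the genotypes. Stat3 fell 1.60-fold between means of 379.5 ± 12.2 and 238 ± 10.1 CPM, which is -0.68 as a log2 fold change (standard error 0.07, 95% interval -0.84 to -0.52, adjusted p = 5.02e-06 in edgeR's quasi-likelihood test). The interval takes in the fold change of 1.5 at which a gene is called, but the estimate stayed past it without any one library, at -0.73 to -0.63.

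Stat5a and Stat5b, paralogues with largely overlapping duties downstream of IL-2 and the other common γ chain cytokines, fell by similar amounts. Stat5a had 308 and 313 CPM in WT cells, against 159 and 174 CPM in Mek1/2-tKO, and Stat5b had 235 and 228 CPM in WT cells, against 117 and 120.3 CPM in Mek1/2-tKO. Neither gene had a Mek1/2-tKO library near its WT libraries. The log2 fold change of Stat5a was -0.90 (standard error 0.08, 95% interval -1.06 to -0.73, adjusted p = 4.71e-07 in edgeR's quasi-likelihood test), a 1.86-fold fall between means of 311 ± 3.39 and 167 ± 10.6 CPM. The log2 fold change of Stat5b was -0.96 (standard error 0.08, 95% interval -1.13 to -0.80, adjusted p = 2.33e-07 in edgeR's quasi-likelihood test), a 1.95-fold fall between means of 232 ± 5.30 and 119 ± 1.98 CPM. Each estimate lies within the interval of the other.

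Stat5b, Stat5a and Stat3 are neighbours on chromosome 11. In the deposited annotation Stat5b (ENSMUSG00000020919.11) occupies chr11:100780731-100850724 on the minus strand, Stat5a (ENSMUSG00000004043.14) chr11:100859351-100885169 on the plus strand and Stat3 (ENSMUSG00000004040.16) chr11:100885098-100939540 on the minus strand. A gap of 8626 bases separates the first pair, and the 3′ ends of Stat5a and Stat3 overlap by 72 bases on opposite strands, which is 1.01% of the exon bases of Stat5a and 0.756% of those of Stat3. The cluster spans 158.8 kb, and all of its 3 genes fell. Stat5a and Stat5b also resemble each other in sequence, which bears on how reads were divided between them. Of the distinct runs of 100 bases in their GENCODE M21 transcripts, 3.44% of those of Stat5a and 4.79% of those of Stat5b occur in the other gene. Their promoters were compared because the paralogues moved together. Among the 12 RefSeq promoter windows of the 9 members (GRCm38.p6, 250 bases before and 50 after each annotated start, 66 pairs of windows), 1 pair shared a run of at least 15 bases, a window of Stat5a with a window of Stat5b. The minimum of 15 was set after the sequences had been seen. The shared run of 16 bases begins at position -32 from the start of Stat5a and -23 from that of Stat5b. It is in capitals in the 250 bases before each start, printed 5′ to 3′, which lie at chr11:100860234-100860483 (plus strand) for Stat5a and chr11:100822571-100822820 (minus strand) for Stat5b. Both windows are of starts inside the gene as it is annotated in the count tables. The data do not tell which start the reads came from.
Stat5a: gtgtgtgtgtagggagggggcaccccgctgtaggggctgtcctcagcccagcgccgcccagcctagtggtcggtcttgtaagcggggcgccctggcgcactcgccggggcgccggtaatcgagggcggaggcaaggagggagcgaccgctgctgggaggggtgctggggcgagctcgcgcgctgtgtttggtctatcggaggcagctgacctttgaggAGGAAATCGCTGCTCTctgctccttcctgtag
Stat5b: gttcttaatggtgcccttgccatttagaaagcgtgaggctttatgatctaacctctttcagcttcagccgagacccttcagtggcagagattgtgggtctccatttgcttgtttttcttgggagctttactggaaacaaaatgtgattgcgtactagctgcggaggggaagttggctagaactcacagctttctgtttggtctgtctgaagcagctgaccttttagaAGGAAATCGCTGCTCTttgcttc

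Stat6, which carries the IL-4 signal of Th2 cells, was lower by less. It stood at 224 and 237 CPM in WT cells, against 157 and 161 CPM in Mek1/2-tKO. The genotypes did not overlap. The log2 fold change was -0.53 (standard error 0.08, 95% interval -0.70 to -0.37, adjusted p = 4.95e-05 in edgeR's quasi-likelihood test), between means of 230.2 ± 9.21 and 159 ± 2.54 CPM, so that Stat6 passed the adjusted p and missed the fold change of 1.5. With scaling by library size alone it passed both, at a log2 fold change of -0.62. Stat6 (ENSMUSG00000002147.18, chr10:127642986-127660957, plus strand) shares 40 exon bases with Nab2 on the other strand.

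Stat4, which relays IL-12 and drives Th1 cells, had one of the smallest differences among the members. Its level was 84.0 and 82.9 CPM in WT cells, against 72.1 and 68.0 CPM in Mek1/2-tKO. The WT pair was tight and both Mek1/2-tKO libraries lay below it. The log2 fold change was -0.25 (standard error 0.09, 95% interval -0.45 to -0.06, adjusted p = 0.0317 in edgeR's quasi-likelihood test), under the fold change of 1.5, and the adjusted p lay between 0.00701 and 0.0645 over the other settings that kept all libraries, above 0.05 with DESeq2. It was also above 0.05 in edgeR without WT replicate 1 (0.204) or WT replicate 2 (0.169). Stat4 (ENSMUSG00000062939.11, chr1:51987148-52107189, plus strand) shares 1033 exon bases, 26.7% of its total, on the same strand with Gm28177, which had 2 and 0 counts in WT and 4 and 9 counts in Mek1/2-tKO. How the counting treated reads on shared bases is not given in the sources used here.

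Stat2, the partner of IRF9 in the response to type I interferon, was the only member with a higher level in Mek1/2-tKO. Its values were 52.9 and 66.8 CPM in WT cells, against 80.2 and 106 CPM in Mek1/2-tKO. Both Mek1/2-tKO libraries were above both WT libraries, but the replicates of this gene were further apart, relative to their mean, than those of any other member. Stat2 rose 1.56-fold between means of 59.8 ± 9.82 and 93.3 ± 18.5 CPM, which is 0.64 as a log2 fold change (standard error 0.14, 95% interval 0.35 to 0.94, adjusted p = 0.00128 in edgeR's quasi-likelihood test). The direction held whichever library was left out, but the size depended on it. Omitting WT replicate 1 gave a log2 fold change of 0.48 and omitting Mek1/2-tKO replicate 2 gave 0.42, both under the fold change of 1.5, whereas omitting WT replicate 2 gave 0.82 and omitting Mek1/2-tKO replicate 1 gave 0.83. It was also under that threshold, at 0.56, when the libraries were scaled by their size alone. Stat2 (ENSMUSG00000040033.16) lies at chr10:128270559-128292849 on the plus strand, 609601 bases beyond Stat6, and shares no exon base with another annotated gene.

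The promoter windows were searched on both strands for 6 motifs, and the sequences with a match to the interferon-response element are shown because Stat2 was the member that rose and its protein acts through that element. The motifs were TTCNNNGAA (the STAT motif, in 8.3% of all 32851 RefSeq promoter windows of this length), TTCNNNNGAA (its STAT6-type form, 6.95%), GAAANNGAAA (the interferon motif, 3.44%), CCGGAAG (ETS, 8.86%), TGACGTCA (cyclic AMP response element, 1.79%) and TGANTCA (AP-1, 7.81%). The window of Stat2 held the interferon motif at position -222 from the start, as TTTCAGTTTC on the printed strand, and 2 bases further on the STAT6-type form, as TTCCCTAGAA. Stat4 has a pair of windows, and the one of its downstream start held the interferon motif at position -97 from that start, as GAAAGTGAAA. The window of Jak1 held the cyclic AMP element TGACGTCA at position -101. The other 9 windows, all those of Jak2, Jak3, Stat3, Stat5a, Stat5b and Stat6 among them, had 0 matches. A match describes letters and not a bound site. The 250 bases before the start of Stat2 (chr10:128270248-128270497, plus strand), of the downstream start of Stat4 (chr1:52007990-52008239, plus strand) and, for contrast as the member that fell furthest, of Jak2 (chr19:29251553-29251802, plus strand) read as follows, with the motif matches in capitals. The full Jak2 window consists of 81% G and C, where the median over all promoter windows is 52.7%. This is not particular to Jak2, since the windows of the members ran from 46%, in a window of Stat4, to 82.7%, in a window of Stat5b.
Stat2: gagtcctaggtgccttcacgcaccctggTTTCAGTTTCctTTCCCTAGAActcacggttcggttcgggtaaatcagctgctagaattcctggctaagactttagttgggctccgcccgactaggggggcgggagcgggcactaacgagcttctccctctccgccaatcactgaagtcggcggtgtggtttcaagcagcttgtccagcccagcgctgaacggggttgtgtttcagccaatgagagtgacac
Stat4: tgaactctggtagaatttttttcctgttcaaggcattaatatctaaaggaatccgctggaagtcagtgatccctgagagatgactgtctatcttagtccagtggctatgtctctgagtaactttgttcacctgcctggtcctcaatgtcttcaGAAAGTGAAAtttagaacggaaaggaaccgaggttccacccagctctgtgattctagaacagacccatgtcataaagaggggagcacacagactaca
Jak2: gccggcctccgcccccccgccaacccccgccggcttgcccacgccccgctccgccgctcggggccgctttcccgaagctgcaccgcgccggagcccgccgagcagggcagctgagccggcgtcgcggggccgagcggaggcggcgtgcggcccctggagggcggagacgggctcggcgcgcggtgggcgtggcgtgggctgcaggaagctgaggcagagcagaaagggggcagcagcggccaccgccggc

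**Figure D2:**
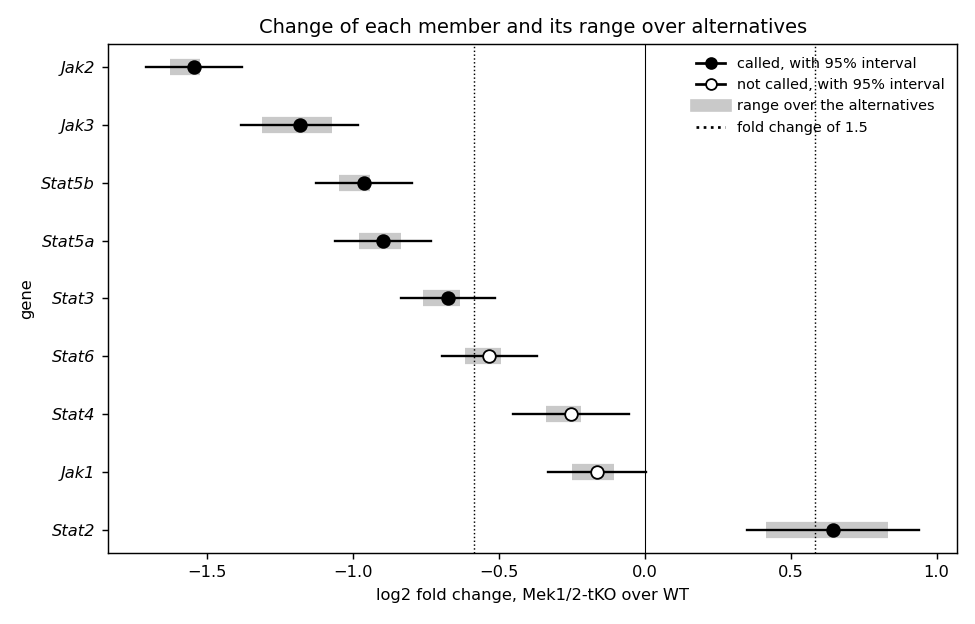
Log2 fold change of each member in Mek1/2-tKO over WT (horizontal axis) with its 95% interval (black line), the range over 8 other settings and 4 left-out libraries (grey bar) and the fold change of 1.5 in either direction (dotted lines); filled points were called and open points were not. The bars of Jak2, Jak3, Stat5a, Stat5b and Stat3 stay beyond the dotted line, and that of Stat2 runs from 0.42 to 0.83 across it.

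The order of the levels changed between the genotypes. Levels of different genes are compared here as CPM per kb of exon. The length is that of all annotated exons of a gene and not of the transcripts present, so that the order of genes with near levels also rests on it. In WT cells Jak2 ranked first at 58.1 CPM per kb, followed by Stat6 at 52.3, Stat5a at 43.6, Stat5b at 41.8, Stat3 at 39.8, Jak3 at 32.9, Jak1 at 32.1, Stat4 at 21.6 and Stat2 at 10.1 CPM per kb. The WT libraries of Jak3 and Jak1 overlapped, and no other neighbours in that order did. In Mek1/2-tKO cells the order was Stat6 at 36.2, Jak1 at 28.7, Stat3 at 24.9, Stat5a at 23.4, Stat5b at 21.5, Jak2 at 19.9, Stat4 at 18.1, Stat2 at 15.8 and Jak3 at 14.5 CPM per kb. Here Stat3 overlapped with Stat5a, Stat4 with Stat2, and Stat2 with Jak3, so that these neighbours cannot be ordered from 2 libraries. Jak2 went from rank 1 to rank 6 and Jak3 from rank 6 to rank 9, while Jak1 moved from rank 7 to rank 2 without passing the test of a change.

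**Figure D3:**
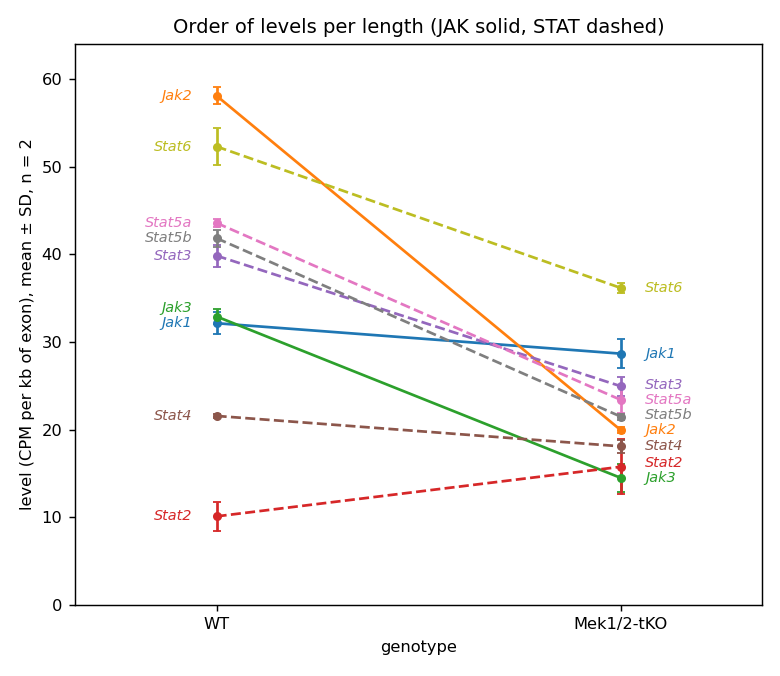
Mean level of each member in CPM per kb of exon (vertical axis, from 0; bars are SD of 2 libraries) in WT and Mek1/2-tKO, with solid lines for JAK genes and dashed lines for STAT genes. The line of Jak2 drops from 58.1 to 19.9 CPM per kb and crosses 5 others, and that of Stat2 alone slopes upwards, from 10.1 to 15.8 CPM per kb.

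Summed over the kinases, the 3 JAK genes had 122 and 124 CPM per kb in WT and 60.5 and 65.6 CPM per kb in Mek1/2-tKO, a mean of 51.2% of WT. The 6 STAT genes had 206 and 212 CPM per kb in WT and 136 and 144 CPM per kb in Mek1/2-tKO, a mean of 66.8% of WT. Within the members' total per kb, Jak2 went from 17.5% to 9.83%, Jak1 from 9.67% to 14.1% and Stat2 from 3.03% to 7.74%. Ratios between members within a library do not depend on how libraries are scaled. The ratio of Stat3 to Stat5a plus Stat5b per kb was 0.454 and 0.479 in WT and 0.555 and 0.557 in Mek1/2-tKO, a difference of 0.25 on the log2 scale. The libraries did not overlap, and the exact two-sided permutation p was 0.333, the smallest that 2 libraries against 2 can give (0.389 after adjustment over the 7 ratios computed). Jak1 to Jak2 was 0.531 and 0.576 in WT and 1.40 and 1.48 in Mek1/2-tKO, a log2 difference of 1.38 at the same exact p. Stat2 to Stat3 was 0.229 and 0.277 in WT and 0.56 and 0.699 in Mek1/2-tKO, a log2 difference of 1.31, again at that p. Stat5a to Stat5b was 1.02 and 1.07 in WT and 1.05 and 1.12 in Mek1/2-tKO, where the libraries overlapped (log2 difference 0.06, exact permutation p = 0.667). The other 3 ratios differed without overlap at the same exact permutation p of 0.333, Stat3 to Stat5a by 0.22, Stat3 to Stat5b by 0.29 and Jak1 to Jak3 by 1.02 on the log2 scale. None of the ratios can pass a threshold of 0.05 in this design.

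For the pair of members with the largest fold changes, the genes with the most similar profile were looked up among the 9605 genes whose log2 CPM averaged 3 or more. Likeness was the Euclidean distance between log2 CPM values of the 4 libraries, each centred on its mean. Closest to Jak2 were Ccdc85c (distance 0.0417), Lpin1 (0.0434), a phosphatidate phosphatase, and Fads1 (0.0589), a fatty acid desaturase. Closest to Jak3 were Cad (0.0256), an enzyme of pyrimidine synthesis, Abca3 (0.0260), a lipid transporter, and Chd3 (0.0349), a chromatin remodeller. Within a distance of 0.2 there were 56 genes for Jak2 and 192 for Jak3. With 2 genotypes and 4 libraries the distance reflects little more than an equal fold change.

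The receptors that work through these kinases went both ways. Of 25 listed cytokine receptor chains 23 were tested, 7 rose and 6 fell, against 19.3% and 16.4% of all genes. Their median log2 fold change was -0.25, and it was -0.12 without WT replicate 2 and down to -0.33 without the other libraries. Il6ra, the chain that binds the IL-6 given to the cultures, had 22.7 and 24.2 CPM in WT cells, against 6.07 and 7.08 CPM in Mek1/2-tKO cells, for a log2 fold change of -1.83. Il12rb2, a chain of the IL-12 receptor that recruits Jak2 and Stat4, had 65.3 and 60.0 CPM in WT cells, against 17.9 and 20.4 CPM in Mek1/2-tKO cells, for a log2 fold change of -1.71. Both fell in the genotype in which Jak2 and Stat3 were lower, but 7 chains of the list rose there. Whether the chains move with Jak2 or Stat3 was not tested. Csf2rb, the common β chain of the receptors for IL-3, IL-5 and GM-CSF, rose from 6.21 and 6.43 CPM to 27.3 and 36.1 CPM, for a log2 fold change of 2.33. The shared chains were singled out after their values were seen. Il6st, the signal-transducing chain used by IL-6, fell from 19.4 and 19.3 CPM to 9.56 and 14.0 CPM (log2 fold change -0.71), and Il2rg, the common γ chain to which Jak3 binds, had 128 and 132 CPM in WT cells, against 133 and 134 CPM in Mek1/2-tKO (log2 fold change 0.04).

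Among 21 listed inhibitors of the pathway, all tested, 3 rose and 6 fell, with a median log2 fold change of -0.25. The 9 called are 42.9% of the list, near the 35.8% called among all genes. Socs1, which blocks the kinase domain of JAKs, rose from 188 and 192 CPM to 458 and 500 CPM, for a log2 fold change of 1.34. Cblb, a ubiquitin ligase, fell from 133 and 117 CPM to 41.5 and 47.9 CPM, for a log2 fold change of -1.48. Socs7 fell by 0.99 on the log2 scale.

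Genes known to respond to each STAT were read from 5 lists, some of which share genes. Of 15 targets of STAT2 with IRF9, 6 rose and 0 fell (median log2 fold change 0.51), against 19.3% of all genes higher. In either direction 40% of these targets were called, near the 35.8% of all genes. In edgeR's quasi-likelihood test 0 of the targets were lower at an unadjusted p under 0.05, and DESeq2 also called 0 lower. Ifit3 rose from 0.513 and 0.467 CPM to 38.7 and 35.7 CPM, for a log2 fold change of 6.23. Irf7 rose by 3.07 and Oasl2 by 2.07 on that scale, and Irf9 itself, singled out after its values were seen, by 0.89. The WT level of Ifit3 was low, and a stricter filter on low counts, applied to every library, left this gene out. With that filter 6 targets of the list were called higher and 0 lower, at a median log2 fold change of 0.46. As Ifit3 was 1 of the 6 called before, these were not the same 6 genes. The list did not move as one: Mx1 had a log2 fold change of 0.06 and Isg15 one of -0.20, and 9 of its 15 genes were not called. Of 15 targets of STAT3, 2 rose and 4 fell (median -0.34), so that 40% were called, near the 35.8% of all genes. Among them Il17a, a Th17 cytokine, had a log2 fold change of 4.58, Bcl6, the defining repressor of Tfh cells, one of 1.85 and Hif1a, a regulator of the hypoxia response, one of -1.37. Il21, also on the STAT4 list and singled out after its values were seen, fell from 7.95 and 8.77 CPM to 1.03 and 1.81 CPM (log2 fold change -2.53).

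Of 12 targets of STAT4, 6 rose and 2 fell (median log2 fold change 0.59), against 19.3% and 16.4% of all genes. The count of those higher was 4 with DESeq2 and 4 to 5 with a library left out. Eomes of this list is also an NK-cell marker. Ifng, the Th1 cytokine, rose from 127 and 121 CPM to 2054 and 1773 CPM, for a log2 fold change of 3.95, and the chains of the IL-18 receptor, Il18r1 and Il18rap, rose by 2.97 and 2.71 on that scale, while the level of Stat4 itself was not called. NK cells and gamma-delta T cells also express Ifng, Il18r1, Il18rap and Il17a. Markers of these cells, and of B-lineage and myeloid cells, were higher in Mek1/2-tKO as given above. The part of such cells in the changes of genes on the pathway lists, Bcl6, Irf7 and Csf2rb among them, was not tested. Of 18 targets of STAT5, 2 rose and 6 fell (median -0.29), which makes 44.4% called, near the 35.8% of all genes, with Lif at -2.04 and Tnfrsf4, the costimulatory receptor OX40, at -1.58 on the log2 scale, and with Socs1 rising. Of 11 targets of STAT6, 9 were tested, 7 fell and 0 rose (median -1.63), against 16.4% of all genes lower, and edgeR's quasi-likelihood test at an unadjusted p under 0.05 and DESeq2 both had 0 higher. The count of those lower was 6 to 8 over the other settings, and likewise with a library left out. Fcer2a of this list, at a log2 fold change of -0.585 just past the threshold, is also a B-lineage marker. Ccr8 fell from 73.1 and 66.1 CPM to 6.01 and 7.14 CPM, for a log2 fold change of -3.40, Gata3, the Th2 master factor, by 2.10 and Ccr4, a chemokine receptor of Th2 cells, by 1.63 on that scale. IL-4 was neutralized in all cultures. Cd4 and several other alpha-beta CD4 T-cell markers were also lower in Mek1/2-tKO as given above. The part of a change in cell types in the fall of these genes was not tested. With each gene counted once, the pathway lists held 104 genes, of which 100 were tested, 25 rose and 26 fell (median -0.16), against 19.3% and 16.4% of all genes.

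**Figure D4:**
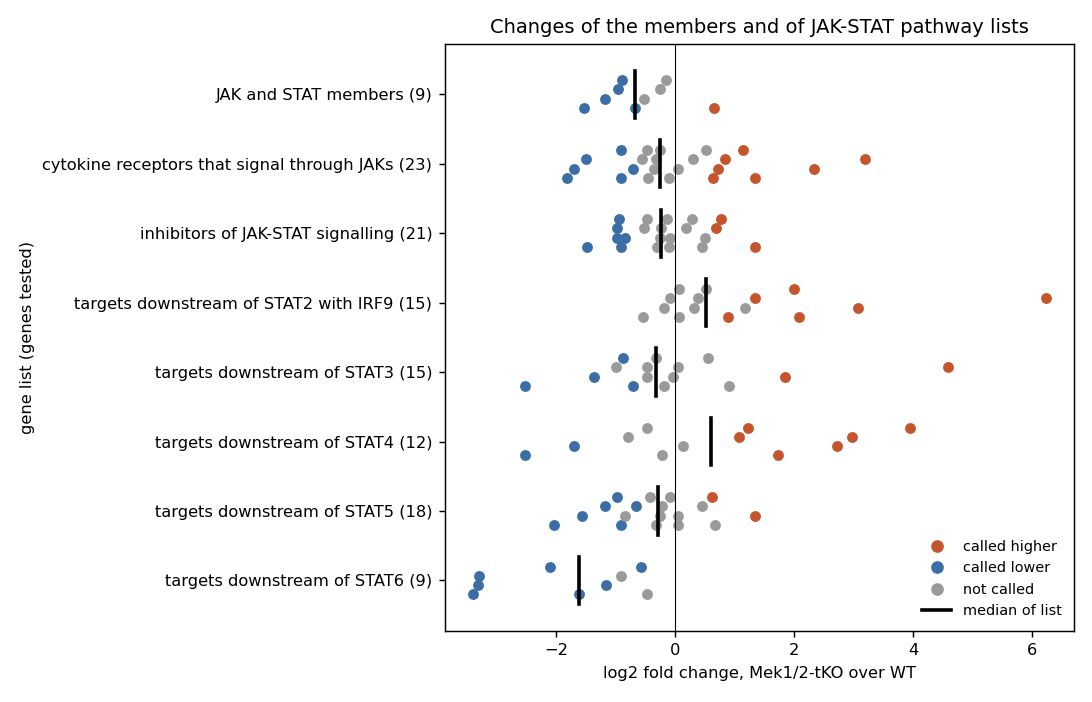
Log2 fold change in Mek1/2-tKO over WT (horizontal axis) of every tested gene of the members and of the 7 pathway lists, 1 point per gene, in orange where called higher, blue where called lower and grey where not called, with a bar at the median of each list. The medians run from -1.63 for the STAT6 targets to 0.59 for the STAT4 targets, and that of the members is -0.68.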

How the data were processed

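Day 3 RNA of Tfh-polarized splenic CD4+ T cells was made into stranded mRNA libraries, 2 for each of the WT and Mek1/2-tKO genotypes. Reads were filtered with Trimmomatic 0.36 and mapped to GRCm38 (the methods write the mapper as STRA), and the authors deposited raw featureCounts (Subread 1.5.1) counts of uniquely mapped reads per gene, with coordinates and exon lengths. Which annotation release was used, and whether strand was, is not given in the sources used here.

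Groups came from the sample titles. Symbols were matched to 54723 of 54752 identifiers. The counts were tested with edgeR 4.0.16 under R 4.3.3 (filterByExpr filter, TMM scaling, quasi-likelihood fit with robust dispersions, no covariates, Benjamini-Hochberg adjustment over 14330 genes), which was tested on simulated data first. CPM per kb used the deposited exon lengths. Totals were 16330802 to 18931090 counts, and a count of 0 allows up to 3 counts, 0.158 to 0.184 CPM, which covers counting error only. Within a genotype the libraries differed by more than counting noise (chi-square per gene 4.19 in WT and 10.9 in Mek1/2-tKO), and the biological coefficient of variation was 0.0918. The alternatives included DESeq2 1.42.0, edgeR's likelihood-ratio test, other scalings and filters, a replicate block and leaving out each library. RefSeq promoters (GRCm38.p6) and GENCODE M21 transcripts were read with Python 3.11.15.

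The members, gene lists and tests were chosen with earlier results of these data known. Besides all members and the targeted genes, the text names from each pathway list the 3 called genes that changed most among those whose log2 CPM averaged 3 or more, from each marker list the 3 most abundant genes, and the 3 genes nearest to each of the pair of members that changed most. Cd4, Il2rg, Il6st, Irf9, Mx1, Isg15 and Il21 were singled out after their values were seen. So were Itga2, Fcer2a, Eomes, Itgam, Csf1r, the alpha-beta CD4 T-cell markers called lower and the genes that overlap a member.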

Additional observations from a re-analysis of the deposited data

How the results depend on the processing

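Over all alternatives, 5 or 6 members were called lower, and the members Jak2, Jak3, Stat3, Stat5a and Stat5b were called lower under each of them. The call of Stat2 was the least stable. With library size alone 0 members were called higher, Stat2 had a log2 fold change of 0.56 and Stat6 was called at -0.62. With each library left out, members called higher were 0 to 1 (0 without WT replicate 1 and 0 without Mek1/2-tKO replicate 2), the log2 fold change of Stat2 was 0.42 to 0.83, and that of Trbc2, -0.03 with all libraries, was -0.12 to 0.049 and turned positive (0.01 and 0.049) without those same libraries. The causes were not tested. Libraries that share a replicate number had deviations from their genotype means that correlated at -0.0262 across genes, so that no strong effect shared by number was seen. The labels do not say whether the numbers pair the libraries, and this correlation cannot decide it. The fit with the replicate block called 2652 genes higher and 2300 lower, against 2768 and 2355 without it, and the block left 1 member called higher and 5 lower. With 2 libraries per genotype, a lone library left in a group was assumed to vary like the other genotype.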
